A study of Mus musculus with 4 samples.

Results

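The genes described are 10 genes of the AP-1 and immediate early group among the 50600 genes counted in each of 4 libraries. They were taken by name: the Jun family genes Jund, Junb and Jun, the Fos family genes Fos, Fosb and Fosl2, the partner gene Batf, and the early response genes Egr1 and Nr4a1. The tenth is Gm11175, annotated as an antisense gene opposite to Jund. Genes whose exons overlap one of these on the opposite strand, Junos at Jun and Prdx2 at Junb, are given beside them. The libraries came from primary cells of C57BL/6NJ mice labelled T-helper 2 (Th2) cells, the CD4 T cells known for interleukin 4. They form 1 group of biological replicates 1 to 4 that share 1 donor identifier, and the file headers give their time as 0 hours in a course of Th1 and Th2 differentiation. No treatment and no control group is named in the labels. The assay is labelled as total RNA-seq, although the linked library protocol carries poly(A) in its name. Nothing states that the replicates came from separate mice, so p-values over the libraries bear only on these samples, whose spread may be technical.

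AP-1 is a transcription factor made of pairs of leucine zipper proteins. Jun proteins pair with one another or with Fos proteins, and Fos proteins do not pair among themselves. Most of these genes are immediate early genes: a signal such as T cell receptor engagement switches them on through kinases that act on factors already present, with no need for new protein. JunB is known in mouse Th2 cells as a factor that binds the Il4 promoter. Immediate early genes are also known to be induced by cell isolation and handling.

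The Gm11175 and Jund pair is shown first as sequence because both genes are read from the same stretch of DNA. All 877 exon bases of Gm11175 lay inside the Jund coding sequence and covered 85.7% of its 1023 coding bases, in mm10 coordinates. The last 60 coding bases of Jund before its stop codon, at chr8:70700021-70700080, are given on the plus strand for Jund and on the minus strand for Gm11175. Capitals mark the last Jund codon before the stop and, as their complement, the same 3 bases at the 5′ end of Gm11175.
Jund: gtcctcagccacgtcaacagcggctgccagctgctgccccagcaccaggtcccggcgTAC
Gm11175: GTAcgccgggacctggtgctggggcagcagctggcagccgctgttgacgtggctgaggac
The single-exon transcript of Gm11175 was the exact reverse complement of Jund over its whole exon. A fragment in this stretch is therefore given to one gene or the other only by its strand.

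The libraries held 1452053 to 2351916 counts, of which 0.440% to 0.515% fell in the 10 genes. Between 87.6% and 89.6% of all counts lay in genes that share exon bases with a gene of the other strand, and 3.04% to 4.08% in genes with no opposite gene within 5 kb. A single gene, CT010467.1, took 3.47% to 16.8% of a library. All 10 T cell markers averaged 1 TPM (the count per exon length, scaled to a common total for every library) or more, with a summed level of 263 to 430 TPM. Of 8 Th2 markers 4 did, Il17rb, Ptgdr2, Il4 and Gata3, with a summed level of 36.2 to 49.6 TPM, while Il5 and Il13 had no count. Gata3 and Ptgdr2 share exon bases with an opposite gene. Of the 3 Th2 markers with no opposite gene within 5 kb, 0 averaged 1 TPM or more. Of 34 markers of other cell types 10 averaged 1 TPM or more, against 34.0% of all protein-coding genes. Of the 34, 19 had no count, including Lyz2, Adgre1, S100a8, S100a9 and Ncr1. The 10 were Csf1r, Cd68, Cd79a, Ighm, Cpa3, Cd8b1, Klrk1, Pecam1, Alas2 and Klf1. Among these, the NK cell marker Klrk1 was at 4.67 TPM, Pecam1 at 7.73 TPM and the erythroid markers Alas2 and Klf1 at 12.1 and 5.01 TPM. The summed level was 101 to 123 TPM for macrophage markers, led by Csf1r, which shares exon bases with an opposite gene, 57.0 to 65.4 TPM for B cell markers, led by Cd79a, and 33.7 to 59.6 TPM for granulocyte and mast cell markers, all from Cpa3. The part of other cells in the values below was not tested, and in bulk RNA fewer cells of a type and less RNA per cell cannot be told apart.

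Gm11175 held most of the counts of the group. It had 10482, 10394, 8016 and 6958 counts in replicates 1 to 4, against 160, 220, 139 and 123 counts for Jund, whose protein JunD is the Jun family member known for steady presence in resting cells. The counts of Gm11175 were far above those of Jund in each library, and the ranges did not overlap. Per exon length, Gm11175 was at 7895 ± 613 TPM and Jund at 74.1 ± 11.3 TPM (SD, n = 4). Gm11175 stood at rank 10 of all genes by mean TPM and Jund at rank 536 of the protein-coding genes. Over the summed counts Gm11175 was 106-fold denser per exon base than Jund (95% Clopper-Pearson interval 98.2 to 115, counting error only). The log2 ratio was 6.74 ± 0.19 (SD, n = 4), higher in 4 of 4 libraries. An exact sign-flip permutation of the 4 library ratios, two-sided, gave p = 0.125, the smallest that 4 libraries allow, so this design cannot pass 0.05. The Jund level corresponded to 0.939% ± 0.129 of the Gm11175 density (SD, n = 4). The 1668 bases of Jund lie at chr8:70698949-70700616 on the plus strand in 1 exon, and Gm11175 at chr8:70699162-70700080 on the minus strand in mm10.

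**Figure D1:**
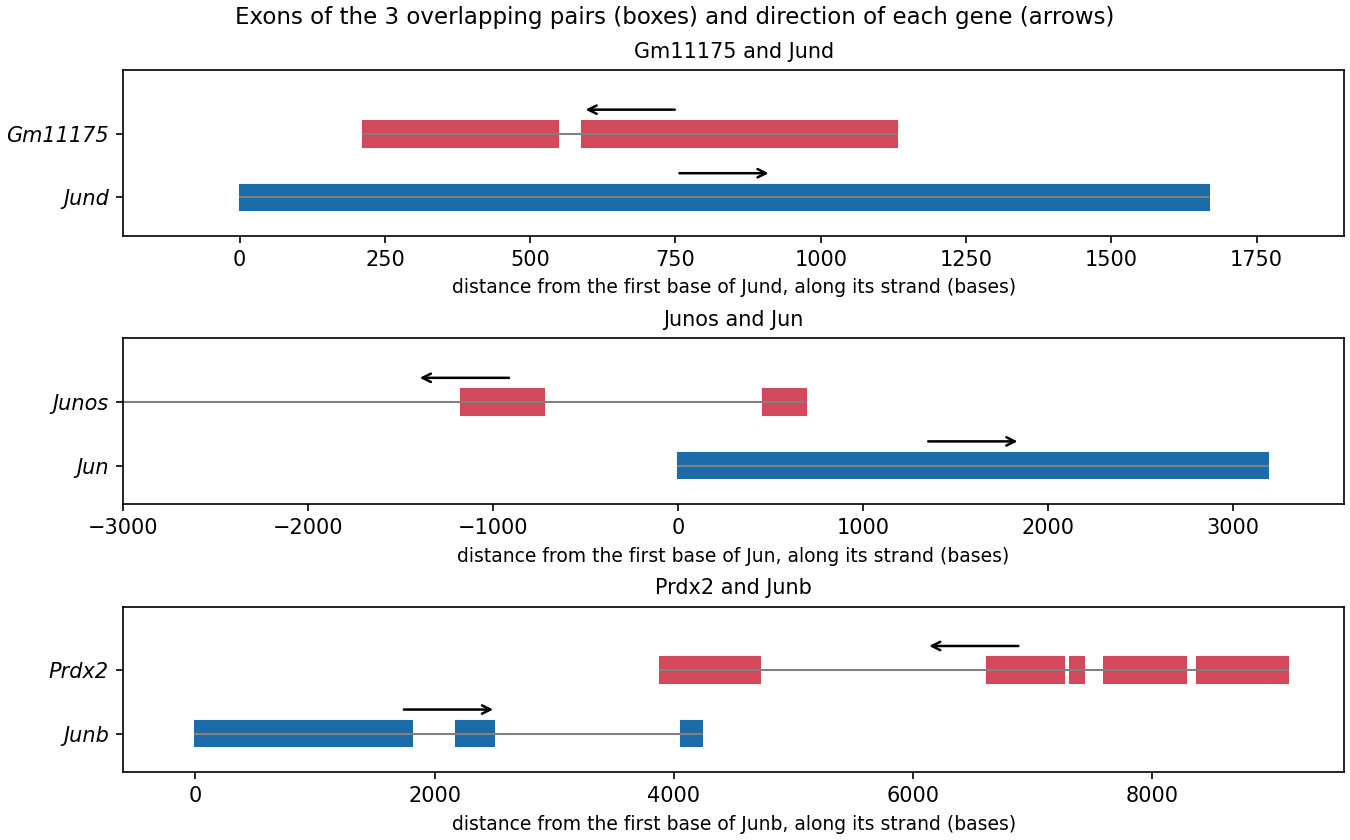
Exons of the 3 overlapping pairs, as distance in bases from the first base of the member along its strand; boxes are exons, the upper gene of each panel is the opposite-strand gene and arrows give the direction of each gene. Gm11175 lies wholly inside the Jund exon, Junos and Jun overlap at their first exons with Junos running off the left edge, and Prdx2 meets only the last of the Junb exon blocks.

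The same direction held for Jun and Junos, an antisense gene whose first exons lie inside Jun and next to its start, and which runs away from it. Junos had 1494, 1641, 1270 and 1607 counts in replicates 1 to 4, against 56, 50, 68 and 44 counts for Jun, the founding Jun family gene. All 4 Junos counts lay above all 4 Jun counts. Junos was at 291 ± 78.5 TPM and Jun at 13.4 ± 2.52 TPM (SD, n = 4). Junos was 21.4-fold denser over the summed counts (95% Clopper-Pearson interval 18.7 to 24.6), with a log2 ratio of 4.42 ± 0.43 (SD, n = 4) that was positive in 4 of 4 libraries and an exact sign-flip permutation p = 0.125. Jun lies at chr4:95049034-95052222 on the minus strand and Junos at chr4:95051534-95167318 on the plus strand. They share 232 exon bases, 0 of them in the Jun coding sequence, while 3885 exon bases of Junos lie outside Jun. Unlike Gm11175, Junos could therefore collect fragments away from the shared bases. In CPM, the count scaled by the total of the library, Junos was at 701, 698, 660 and 1107 in replicates 1 to 4. The level in replicate 4 was higher than in the other libraries, while Jun in that library, at 30.3 CPM, lay inside the range of the others, 21.3 to 35.4 CPM.

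Junb overlaps a protein-coding gene and showed the opposite order. Prdx2, which encodes peroxiredoxin 2, an enzyme that reduces hydrogen peroxide, had 15, 11, 12 and 10 counts in replicates 1 to 4, against 238, 241, 187 and 118 counts for Junb. Prdx2 was below Junb in each library, and the ranges did not overlap. Prdx2 was at 3.07 ± 0.470 TPM and Junb at 64.6 ± 8.53 TPM (SD, n = 4), so that the log2 ratio of Prdx2 over Junb was -4.35 ± 0.36 (n = 4, lower in 4 of 4, exact sign-flip permutation p = 0.125). Junb was 21.65-fold denser over the summed counts (95% Clopper-Pearson interval 16.2 to 29.6). Junb lies at chr8:84974484-84978718 on the minus strand and Prdx2 at chr8:84969587-84974834 on the plus strand. The 173 shared exon bases belong to an alternative Junb transcript, and 0 to the Junb transcript that carries the coding sequence. Rnaseh2a, the gene of the RNase H2 catalytic subunit, lies within 5 kb on the Junb strand and had 457, 435, 341 and 389 counts. It is also opposite to Prdx2 and shares 177 exon bases with it, so Junb is not the only gene overlapping Prdx2. The part of that overlap in the Prdx2 level was not tested.

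Over all protein-coding genes with an opposite gene that is not protein-coding, an exon overlap of at least 100 bases and a mean pair count of at least 20, the opposite gene was denser in all 4 libraries in 990 of 1162 pairs, or 85.2%. Both such pairs of the group, Gm11175 over Jund and Junos over Jun, were of this kind, the same direction as most pairs of the genome. The median log2 ratio over the 1162 pairs was 5.90, with quartiles of 3.19 and 7.69. A ratio above that of Gm11175 over Jund was seen in 450 pairs, or 38.7%, and above that of Junos over Jun in 775, or 66.7%. Among 178 pairs whose opposite gene is covered to at least 80%, as Gm11175 is, the median was 7.63 and 105 exceeded the Gm11175 ratio. Where both overlapping genes are protein-coding, as for Prdx2 and Junb, 1 of the genes was denser in all 4 libraries in 786 of 846 pairs, or 92.9%. In 312 of those pairs, or 36.9%, the densities lay further apart than for Prdx2 and Junb. These backgrounds do not set Jund, Jun or Junb apart from other overlapping genes. The cause of the general difference between strands was not tested. Of protein-coding genes with an opposite-strand exon overlap, 57.9% averaged 1 TPM or more, against 19.4% of those with no opposite gene within 5 kb. The library kit is not given in the sources used here. Whether strand setting 1 of the counting matches the strand of the reads was not tested. With the opposite setting, fragments in the shared bases would be given to the other gene of each pair. Outside shared bases, as in Fos, Fosb, Batf, Egr1, Nr4a1 and most of Junos, fragments of the other strand would be counted instead. The counts of Jund, Gm11175, Jun, Junos, Junb and Prdx2 are therefore counts of fragments assigned under that setting, as are those of the other genes.

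**Figure D2:**
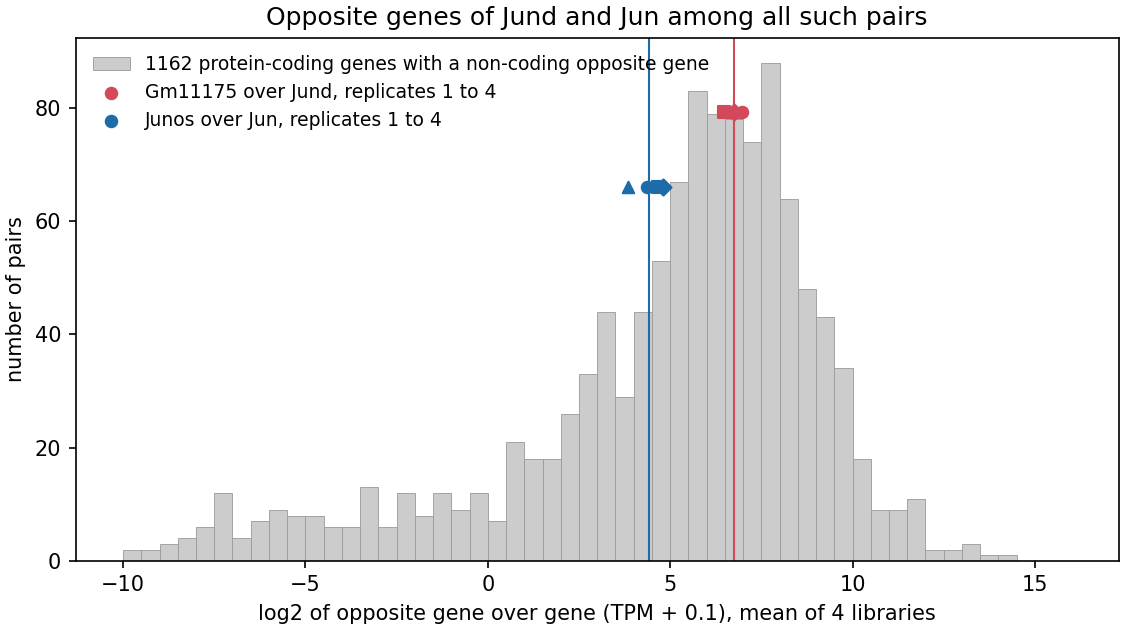
Number of pairs (y axis) by log2 of the opposite gene over the protein-coding gene in TPM + 0.1, mean of 4 libraries (x axis); coloured points are the 4 libraries for Gm11175 over Jund and Junos over Jun and vertical lines their means of 6.74 and 4.42. Both means lie between the quartiles of the 1162 pairs, 3.19 and 7.69.

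Among the Jun family genes, Jund and Junb stood above Jun. Jund was at 66.8, 88.8, 63.9 and 76.9 TPM in replicates 1 to 4, Junb at 72.0, 70.5, 62.3 and 53.5 TPM, and Jun at 12.2, 10.6, 16.3 and 14.4 TPM. The ranges of Jund and Junb overlapped each other, and neither overlapped that of Jun. Junb was 4.98-fold denser than Jun over the summed counts (95% Clopper-Pearson interval 4.28 to 5.82; log2 ratio 2.27 ± 0.43, SD, n = 4). Jund was 5.63-fold denser than Jun (interval 4.82 to 6.60; log2 ratio 2.47 ± 0.45, SD, n = 4). Both ratios were positive in 4 of 4 libraries, with an exact sign-flip permutation p = 0.125 and, over the 9 ratios between members, a Benjamini-Hochberg adjusted p = 0.188. Junb over Jund had a log2 ratio of -0.20 ± 0.29 (SD, n = 4; higher in 1 library and lower in 3, exact p = 0.375). As CPM scaled by TMM factors and not divided by length, this ratio was 0.27, so the order of Jund and Junb was not settled. All 3 genes share exon bases with an opposite gene, and the part of that overlap in their levels was not tested.

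**Figure D3:**
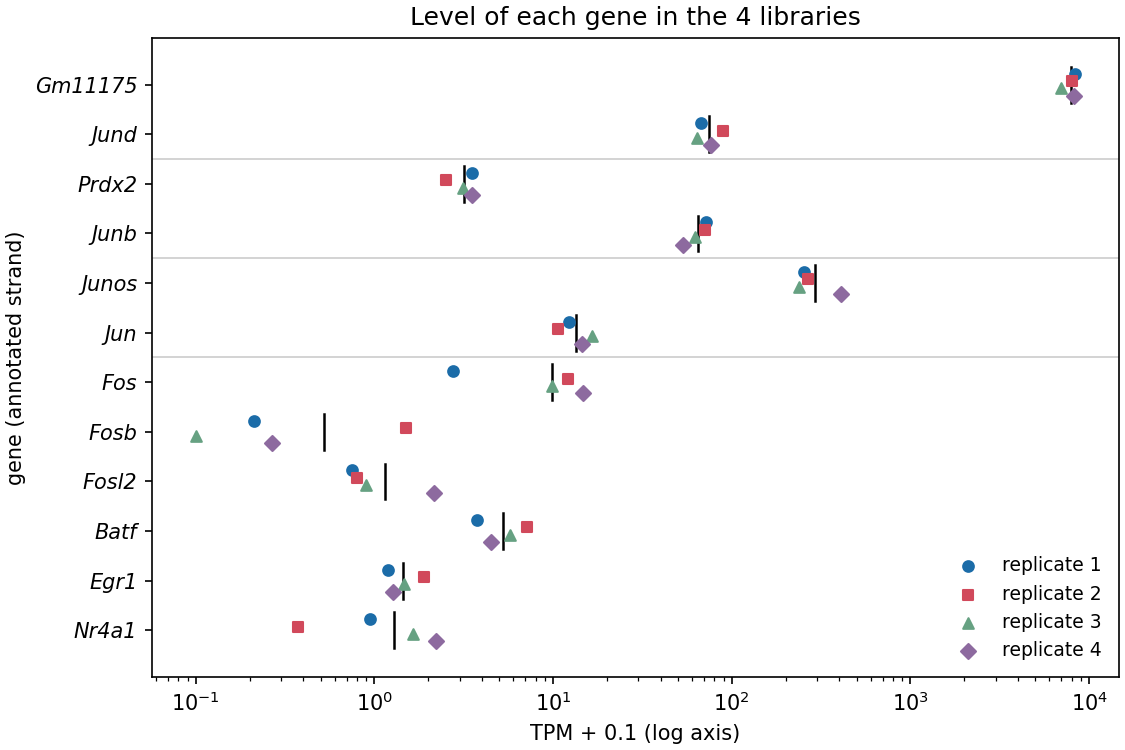
Level of each of the 10 genes and of Prdx2 and Junos (y axis) as TPM + 0.1 on a log axis, 1 marker per library and a black bar at the mean of 4 libraries; grey lines close each pair of an opposite gene and its member. Gm11175 lies 106-fold above Jund, Jund and Junb lie between 53.5 and 88.8 TPM, and Fos has 1 library apart from the other 3.

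The 6 remaining genes, Fos, Fosb, Fosl2, Batf, Egr1 and Nr4a1, share no exon base with a gene of the other strand. Of these, Fosl2 has an opposite gene within 5 kb, Gm10463, which had no count. Together they held 34, 88, 60 and 67 counts in replicates 1 to 4. Fos, the gene of the partner that binds DNA only with a Jun protein, was the highest with 9, 42, 30 and 33 counts, which is 4.22, 17.9, 15.6 and 22.7 CPM. Replicate 1 stood below the other 3 libraries. Its 95% Poisson interval of 1.93 to 8.02 CPM did not overlap that of replicate 3, the nearest, 10.5 to 22.3 CPM. The difference between these libraries exceeded their counting error. The mean was 15.1 ± 7.84 CPM, or 9.77 ± 5.14 TPM (SD, n = 4), and the highest library was 5.38 times the lowest. Fos lies at chr12:85473890-85477273 on the plus strand, with no other gene within 5 kb. The summed level of the other 5 genes was 11.7, 19.6, 15.6 and 23.4 CPM, so replicate 1 was also the lowest there, by a smaller ratio to the rest. The summed level of the T cell markers, 263 TPM in replicate 1 against 319 to 430 TPM in the others, and of the handling stress genes, 227 TPM against 249 to 286 TPM, were also lowest in replicate 1. Their part in the Fos value was not tested.

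Fosb and Fosl2, the other Fos family members of the group, were lower than Fos per exon length. Fosb, which is known as a strongly inducible Fos relative, had 1, 13, 0 and 1 counts in replicates 1 to 4. Fosl2, which encodes the Fos-related protein Fra-2, had 9, 10, 10 and 19 counts. Fosb was thus carried by replicate 2, and Fosl2 was highest in replicate 4. Per exon length, Fosb was at 0.420 ± 0.658 TPM and Fosl2 at 1.05 ± 0.671 TPM, against 9.77 ± 5.14 TPM for Fos (SD, n = 4). The log2 ratio to Fos was -4.78 ± 1.70 for Fosb and -3.02 ± 0.89 for Fosl2, each lower in 4 of 4 libraries (SD, n = 4; exact p = 0.125, adjusted p = 0.188). As TMM-scaled CPM not divided by length, Fosl2 over Fos was -1.10 with an exact p = 0.25, since both genes had 9 counts in replicate 1. Over the summed counts, Fos was 20.2-fold denser than Fosb (95% Clopper-Pearson interval 11.7 to 37.2) and 9.77-fold denser than Fosl2 (6.92 to 14.0). For Fosb, the 0 counts of replicate 3 allow up to 3 counts or 1.56 CPM, and the two-sided 95% Poisson interval drawn in the plot of CPM reaches 1.92 CPM. Fosb lies at chr7:19302696-19310051 on the minus strand and Fosl2 at chr5:32135801-32157842 on the plus strand.

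Batf, Egr1 and Nr4a1 were counted at a few fragments per library. Batf, whose protein pairs with Jun proteins and binds together with IRF4 in T cells, had 5, 10, 7 and 4 counts. Egr1, a zinc finger factor induced through the ERK pathway, had 7, 12, 8 and 5 counts. Nr4a1, an orphan nuclear receptor used in mice as a marker of T cell receptor signals, had 3, 1, 5 and 5 counts. Within each of these genes the Poisson intervals of the 4 libraries overlapped. Such overlap is not a test of equal levels, and differences between these libraries were not tested pair by pair. Batf is short and was at 5.17 ± 1.50 TPM, Egr1 at 1.35 ± 0.321 TPM and Nr4a1 at 1.19 ± 0.803 TPM (SD, n = 4). The log2 ratio of Egr1 over Fos was -2.55 ± 0.97 and that of Nr4a1 over Fos -2.97 ± 1.47, both lower in 4 of 4 libraries (SD, n = 4; exact p = 0.125, adjusted p = 0.188). Nr4a1 over Fos was -2.29 without replicate 2, in which Nr4a1 had 1 count. Egr1 over Fos was -1.68 as TMM-scaled CPM not divided by length. For Batf over Fos the log2 ratio was -0.71 ± 0.89 (SD, n = 4; lower in 3 libraries and higher in 1, exact p = 0.25). Batf lies at chr12:85686669-85709087, Egr1 at chr18:34859823-34864984 and Nr4a1 at chr15:101266846-101274792, all on the plus strand.

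**Figure D4:**
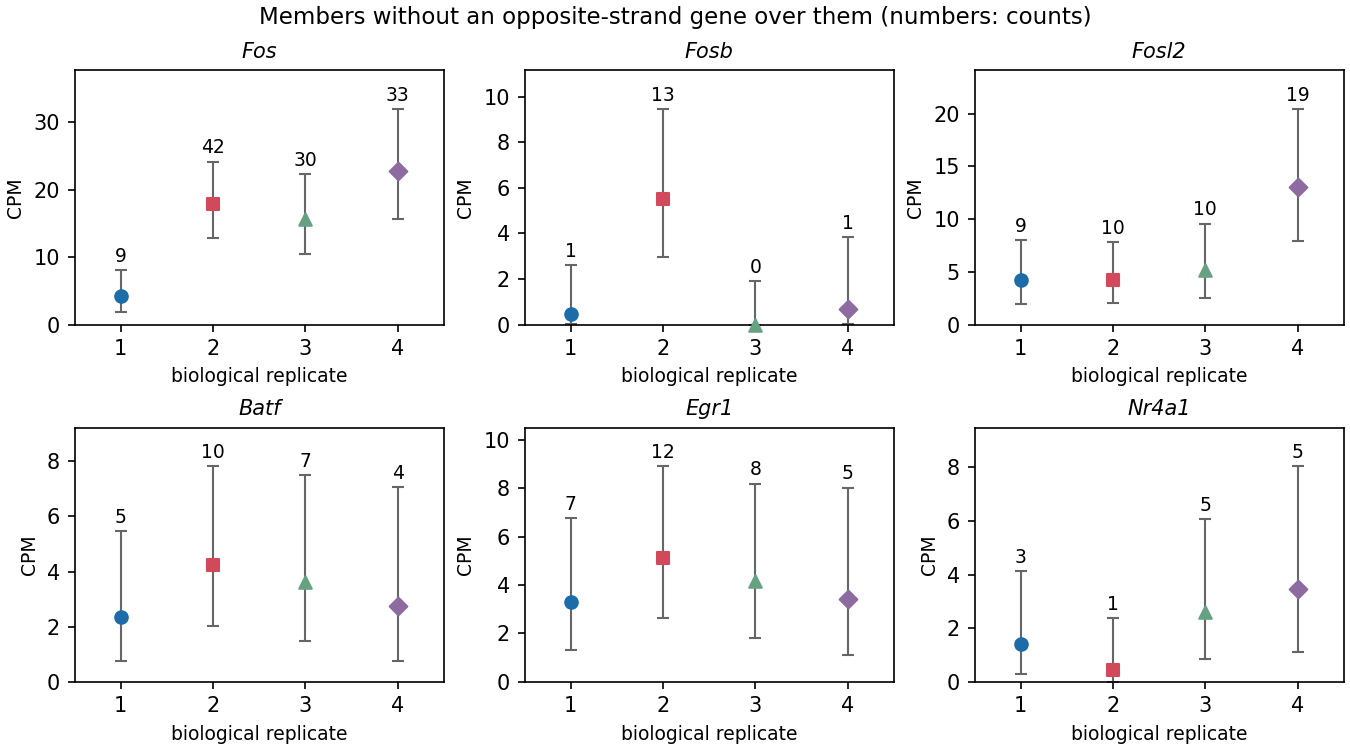
CPM (y axis, from 0) of the 6 genes without opposite-strand exon overlap in biological replicates 1 to 4 (x axis); bars are 95% Poisson intervals of the count, covering counting error only, and the number above each bar is the count. Fos in replicate 1, at 9 counts, lies below the intervals of the other libraries, Fosb is led by 13 counts in replicate 2, and the intervals of Batf, Egr1 and Nr4a1 overlap.

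The order of mean levels per length was Gm11175, Jund, Junb, Jun, Fos, Batf, Egr1, Nr4a1, Fosl2 and Fosb. Neighbours whose ranges over the libraries did not overlap were Gm11175 and Jund, Junb and Jun, and Batf and Egr1. The Jun family genes summed to 151, 170, 142 and 145 TPM in replicates 1 to 4, against 3.42, 14.1, 10.6 and 16.9 TPM for Fos, Fosb and Fosl2. The Jun family sum was thus steady over the libraries, and the ratio of the sums, at 44.1, 12.0, 13.5 and 8.59, was highest in replicate 1, where Fos was lowest. With Fosl1, a Fos family gene outside the group, the Fos family sum was 26.3, 39.0, 24.5 and 37.0 TPM, and the ratio 5.75, 4.36, 5.82 and 3.91, so that replicate 1 no longer stood apart. All 3 Jun family genes overlap an opposite gene, and Fos, Fosb and Fosl2 do not. The log2 ratio of Fos over Jun was -0.67 ± 1.07 (SD, n = 4), higher in 2 libraries and lower in 2, with an exact p = 0.5.

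Of the 10 genes, 9 averaged 1 TPM or more, all except Fosb, against 21.6% of all genes and 34.0% of protein-coding genes. Among the 5 with no opposite gene within 5 kb, which are Fos, Fosb, Batf, Egr1 and Nr4a1, 4 did, against 19.4% of protein-coding genes of that kind. All of Jund, Junb and Jun did, against 57.9% of protein-coding genes with an exon overlap. Fosl2 at 1.05 TPM and Nr4a1 at 1.19 TPM lay just above the threshold and Fosb at 0.420 TPM below it, and with 1 library left out the count of genes was 7 to 9. The median of these 5 was 1.35 TPM, beside a median of 0 TPM for those protein-coding genes. With edgeR's intercept-only quasi-likelihood fit over all genes, 16 of 5755 genes, or 0.278%, were more variable between libraries than the trend at an adjusted p of 0.05, and 285 had an unadjusted p under 0.05. Jund, Gm11175, Junb and Jun passed its filter on low counts and 0 of the 4 were called or had an unadjusted p under 0.05. Their spread was 0.823, 1.01, 0.544 and 0.379 times the trend. The other 6 genes were not tested there. Without the filter all 10 were tested and 0 called: Fos had 3.16 times the trend with an unadjusted p = 0.0237 and an adjusted p = 0.919 (edgeR, Benjamini-Hochberg), and 1.51% of genes were more variable.

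Related genes were read from lists, described by counts and medians. Among all protein-coding genes 34.0% averaged 1 TPM or more, and among those with no opposite gene within 5 kb 19.4% did. Of 13 AP-1 paralogues 3 averaged 1 TPM or more: Batf2 at 20.7 ± 3.92 TPM, Fosl1 at 20.4 ± 4.76 TPM and Maff at 7.56 ± 3.97 TPM (SD, n = 4), while Nrl had no count. Batf2 shares exon bases with an opposite gene, and Fosl1 and Maff have an opposite gene within 5 kb. Of the 3 AP-1 paralogues with no opposite gene within 5 kb, 0 averaged 1 TPM or more. Fosl1 encodes Fra-1, a further Fos relative, and stood above Fos by mean TPM; it was not among the ratios tested. Of 5 EGR and NR4A paralogues only Egr2 did, at 1.33 ± 0.831 TPM, and Egr4 had no count. Of 33 other immediate early genes 24 did, led by Socs3, a feedback inhibitor of cytokine receptors, at 52.6 TPM (45.0 to 62.7 over the 4 libraries), Cebpd at 32.6 ± 2.46 TPM and Btg1, an antiproliferative gene, at 28.2 ± 4.42 TPM. Ier3, Arc and Plk2 had no count. The median of the lists was 0.717 TPM for the AP-1 paralogues, 0.523 TPM for the EGR and NR4A paralogues and 3.41 TPM for the other immediate early genes, beside 0.144 TPM for all protein-coding genes.

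Of 20 matched kinases and factors that act upstream of these genes 16 averaged 1 TPM or more, with a median of 2.59 TPM. The share of all protein-coding genes at that level was 34.0%. The highest were Elk3, a partner of the serum response factor, at 18.5 ± 3.92 TPM, Mef2d at 12.7 ± 2.67 TPM and Map2k1, the kinase MEK1, at 8.41 ± 2.06 TPM (SD, n = 4). Elk3 and Mef2d share exon bases with an opposite gene. Of 15 AP-1 partners and targets in T cells 7 did, with a median of 0.652 TPM. These included Cd40lg, the CD40 ligand of helper T cells, at 13.6 ± 1.84 TPM, Il4 at 7.96 ± 5.76 TPM and Bach2, a repressor that competes for AP-1 sites, at 3.84 ± 1.64 TPM. Il5, Il13, Ifng and Csf2, cytokine genes with AP-1 sites, had no count at this depth, and the reason was not tested. All 9 handling stress genes averaged 1 TPM or more, led by Hsp90ab1 at 159 ± 8.75 TPM, Hspa8 at 30.1 ± 4.44 TPM and Hspa1b at 18.2 ± 5.96 TPM. Their summed level was 227, 286, 249 and 249 TPM in replicates 1 to 4. The part of handling in the levels of Fos, Jun and Junb was not tested.

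**Figure D5:**
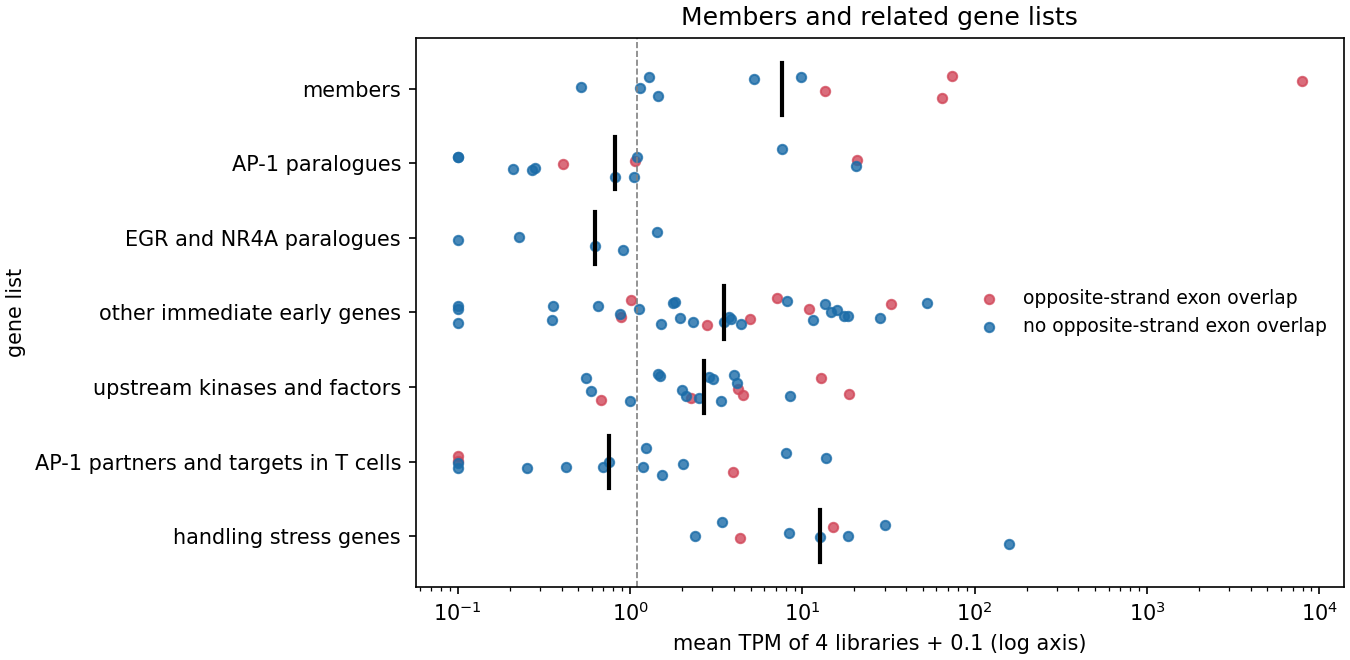
Mean TPM of 4 libraries + 0.1 on a log axis (x axis) for the 10 members and the genes of 6 related lists (y axis); each point is 1 gene, coloured by whether an opposite-strand gene shares its exon bases, black bars are medians and the dashed line is a mean of 1 TPM. Gm11175 is the highest point, and the median of the members, 7.47 TPM, lies between that of the other immediate early genes, 3.41 TPM, and that of the handling stress genes, 12.5 TPM. The 6 members without an opposite-strand exon overlap have a median of 1.27 TPM, below that of the other immediate early genes.

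Of the 95 genes in the 6 lists, 15 share at least 100 exon bases with an opposite gene. The opposite gene was higher in all 4 libraries in 6 of 7 pairs with a gene that is not protein-coding and a mean pair count of at least 20, against 85.2% of such pairs in the genome. In pairs of coding genes, 1 of the genes was higher in all 4 libraries in 8 of 8, against 92.9% in the genome. The opposite gene was the higher one in 6 of these 8 pairs and the lower one in 2. Gm26669, opposite to Zfp36l1, an RNA-binding protein gene that limits early response mRNAs, had a mean close to that of Gm11175, 4574 ± 344 CPM. It was at 4594 ± 524 CPM, against 9.63 ± 2.29 CPM for Zfp36l1 (SD, n = 4). Bach2os was at 505 ± 52.2 TPM, against 3.84 ± 1.64 TPM for Bach2. Spidr and Cebpd were 1 of the 2 coding pairs with a lower opposite gene, the same order as for Prdx2 and Junb. Spidr was at 0.883 ± 1.06 CPM against 80.7 ± 6.22 CPM for Cebpd. These 3 pairs were named after their values were seen.

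The promoters of Jun, Fos and Nr4a1 are given because Jun and Junos overlap at their 5′ ends, Fos was the highest gene without overlap, and Nr4a1 held the most matches to the TGACG half-site. Each is the 250 bases before the start of the gene as RefSeq gives it, on GRCm38.p6, the assembly of mm10. They lie at chr4:95052223-95052472 on the minus strand for Jun, chr12:85473640-85473889 on the plus strand for Fos and chr15:101266596-101266845 on the plus strand for Nr4a1. Capitals mark TGACATCA and CCAAT in Jun, TGACG and TATAAA in Fos, and CGTCA, the reverse complement of TGACG, in Nr4a1.
Jun: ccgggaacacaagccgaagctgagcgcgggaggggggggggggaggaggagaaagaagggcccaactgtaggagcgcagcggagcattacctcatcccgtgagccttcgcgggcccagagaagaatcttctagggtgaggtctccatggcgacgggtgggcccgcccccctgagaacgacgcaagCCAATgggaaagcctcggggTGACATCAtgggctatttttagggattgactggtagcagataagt
Fos: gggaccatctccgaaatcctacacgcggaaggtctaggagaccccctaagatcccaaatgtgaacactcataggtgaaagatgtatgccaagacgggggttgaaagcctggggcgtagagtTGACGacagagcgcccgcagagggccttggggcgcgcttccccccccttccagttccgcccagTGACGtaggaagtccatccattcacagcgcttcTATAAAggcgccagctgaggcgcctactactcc
Nr4a1: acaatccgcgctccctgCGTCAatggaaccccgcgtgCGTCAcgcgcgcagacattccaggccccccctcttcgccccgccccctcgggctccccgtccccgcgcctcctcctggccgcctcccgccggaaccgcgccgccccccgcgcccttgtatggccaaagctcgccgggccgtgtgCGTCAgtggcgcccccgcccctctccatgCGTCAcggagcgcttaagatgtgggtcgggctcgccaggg
TGACATCA began 45 bases before the start of Jun, and TATAAA 33 bases before that of Fos. A window was read for 8 of the 10 members, and 5 held TGACG on either strand, against 17.8% of 32851 promoter windows of the same length. Those windows were not matched for the share of G and C bases, which was 46.4% to 74.4% in the 8. The part of that share in the number of matches was not tested. CCAAT was found in 2 and TATAAA in 1, against 33.8% and 12.4% of the windows. The AP-1 motif TGACTCA and the CRE motif TGACGTCA, which contains TGACG on both strands, were found in 0 of 8, against 4.46% and 1.55%. TGACATCA was found in 1, against 2.93%. The window of Jund began at a RefSeq start 1210 bases from the counted one. For Fosl2 the RefSeq start was 671 bases from the counted one, and the window lay within the span of the counted gene. A match is a description of the letters and not of binding. Between the start of Jun and the nearest RefSeq start of Junos lay 94 bases, with the genes pointing away from each other.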

How the data were processed

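Counts of read pairs per gene, 1 table per library, were deposited by the authors. Per the file headers they were made from STAR alignments to mm10 with featureCounts 1.4.6-p4 over GENCODE mouse release 13 exons, with strand setting 1 and both ends aligned, and were not normalised. The kit and read trimming: not given in the sources used here.

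TPM and CPM were computed here from the counts and exon lengths with pandas 2.3.3, numpy 2.4.6 and scipy 1.17.1 in Python 3.11.15. Symbols matched 50376 of 50600 genes; gene types and transcripts came from GENCODE mouse release 21, and promoters from RefSeq tables. A total of 3 counts, the limit a count of 0 allows, was 1.28 to 2.07 CPM; intervals (95%) cover counting error only, as PCR copies were not marked by molecular identifiers. No libraries were copies: the chi-square per degree of freedom was 7.35 to 30.9.

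With 1 group, genes were compared within libraries, as log2 of TPM + 0.1, by an exact sign-flip permutation (two-sided), whose smallest p comes from 2 of 16 patterns. That p is reached whenever all libraries agree in sign, whatever their spread. The ratios were adjusted by Benjamini-Hochberg over the 3 opposite-gene and the 9 member ratios separately. Spread was fitted with edgeR 4.0.16 in R 4.3.3 (filterByExpr, TMM, intercept only). The fit was also run on data simulated at a fixed dispersion without a trend over levels. That run does not show how the test performs at the levels of the low-count members. The named genes are the members, genes sharing their exons on the opposite strand, neighbours within 5 kb with 20 or more counts on average, and the 3 highest and up to 5 zero-count genes of each list. Some genes that this rule takes are not reported here. Members and lists were chosen with earlier results of these data known, and the comparison of overlapping protein-coding pairs and the Fos family sum with Fosl1 after seeing the counts. Alternatives were other pseudocounts, TMM-scaled CPM, other detection levels, RLE factors, no filter, and each library left out.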

Additional observations from a re-analysis of the deposited data

Results flagged for a closer look

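In 24 sets of 4 library values for the members, their opposite genes and sums, a single library stood apart by Dixon's gap test in 3 sets, while chance marks about 1 in 20. Fosb had 5.53 CPM in replicate 2, against 0 to 0.689 CPM in the other libraries. Fosl2 had 13.1 CPM in replicate 4, against 4.22 to 5.20 CPM in the others. Junos had 1107 CPM in replicate 4, the library with the fewest counts, against 660 to 701 CPM in the others. The causes were not tested.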

How the results depend on the processing

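Of 84 alternative values of the 12 ratios, 36 with another pseudocount or scale and 48 with a library left out, 83 kept their direction. Junb over Jund turned to 0.27 as TMM-scaled CPM not divided by length; without that division, values also moved to 5.82 for Gm11175 over Jund, 1.54 for Jund over Jun, -1.98 for Batf over Fos and -1.10 for Fosl2 over Fos. Fosb over Fos, with few counts, was -2.83 at a pseudocount of 1 TPM and -5.96 at 0.01 TPM. At 1 TPM, Nr4a1 over Fos was -2.19 and Fosl2 over Fos -2.26. No ratio reversed with a library left out, but 3 libraries cannot give an exact p below 0.25. The number of detected members, 9, was 7 to 9 with a library left out and 6 at a level of 2 TPM. The 990 pairs with a denser opposite gene were 988 to 997 with a library left out. The 16 genes more variable than the trend were 7 to 10 with a library left out and 15 with RLE factors, with 0 members called each time. Fos could be tested only without the filter or without replicate 1, where its spread was 0.488 times the trend. No paired analysis was possible because the study has 1 group. Low counts limit what can be said of Fosb, Fosl2, Batf, Egr1 and Nr4a1, which had 0 to 19 counts per library.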
